A study of Mus musculus with 9 samples.

Results

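The Hippo pathway controls organ size by restraining a pair of transcriptional coactivators, YAP (gene Yap1) and TAZ (gene Wwtr1). When its kinases are active, YAP and TAZ are phosphorylated and kept in the cytoplasm. When the kinases are quiet, YAP and TAZ enter the nucleus, bind DNA through the TEAD transcription factors and switch on genes such as Ccn1, Ccn2, Ankrd1 and Amotl2. In the developing lung YAP is known for its role in the epithelium of the growing airways, where it responds to mechanical tension. The present account covers 10 genes of 55286 in the deposited tables, chosen by name: the coactivators Yap1 and Wwtr1, the 4 TEAD genes Tead1 to Tead4, and the targets Ccn1 (also called Cyr61), Ccn2 (also called Ctgf), Ankrd1 and Amotl2. All 10 were found, and 9 passed the filter on low counts; Ankrd1 did not.

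RNA was measured by sequencing in 9 libraries from wild-type mouse lung, in 3 groups of 3. One group was E11.5 lung, where E gives the embryonic age in days; no culture is named for it and it is called fresh lung here. The remaining libraries came from lung explants of that age after 72 h in vitro, as controls or treated with EPZ5676, a DOT1L inhibitor; DOT1L places methyl groups on histone H3 at lysine 79. The sources used here do not give its dose. The cell type label reads primary lung cell for all 9, while the design text speaks of explants. Nothing says that replicates were separate embryos or cultures, and p-values therefore reflect only how far these libraries differ, possibly for technical reasons. All 8 epithelial and all 8 lung mesenchymal marker genes that were checked, among them Nkx2-1 and Tbx4, were at 1 TPM or more in every library.

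The libraries held 6509563 to 9861452 counts. Control 1 stood apart from the other controls in transcripts of neighbouring tissues: the summed level of 8 liver markers was 227 TPM there and 1.92 and 2.35 TPM in Control 2 and Control 3, that of 8 heart muscle markers 205 TPM against 61.9 and 48.9 TPM, and that of 8 cartilage markers 140 TPM against 40.5 and 18.9 TPM. Control 1 was also the highest control in summed epithelial, mesenchymal, smooth muscle, endothelial, red cell and macrophage markers, though not in mesothelial ones. The tissue is bulk, so fewer cells of a type and less RNA per cell cannot be told apart. TPM, a transcript abundance scaled by length and depth, are used below for levels, as mean ± SD over 3 libraries. Changes are log2 fold changes ± SE from counts, tested two-sided with edgeR's quasi-likelihood method and adjusted by Benjamini-Hochberg over all 15158 genes tested, with a threshold of 0.05. Both explant groups were compared with the same 3 fresh libraries, so the resulting pair of comparisons is not independent.

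Between fresh lung and explants the 10 genes did not move as a block. In control explants the matricellular genes Ccn1 and Ccn2 and the coactivator gene Wwtr1 rose, and Tead4 fell. In EPZ5676 explants Ccn1 and Ccn2 rose, and Yap1 and Tead2 fell. Each comparison thus called 4 of 9 tested genes, beside 37.7% of all genes for control explants against fresh lung and 40% for EPZ5676 explants against fresh lung, so the share of these genes called was near that of the whole table. By direction, 3 of the 9 rose in control explants, where 21.1% of all genes rose, and 1 fell, where 16.6% fell; with EPZ5676 2 rose (22.1% of all genes) and 2 fell (17.9%). On the log2 CPM scale (depth-scaled counts) the groups did not overlap for 5 of the 9 genes in controls against fresh lung, where they did not for 51.4% of all genes, and for 7 of the 9 with EPZ5676, where they did not for 57.3%. The median log2 fold change of the 9 genes was -0.085 in control explants and -0.23 with EPZ5676, while that of all genes was 0.020 and 0.019. Between EPZ5676 and control explants 0 of the 9 passed the threshold, where 0% of all genes did.

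**Figure D1:**
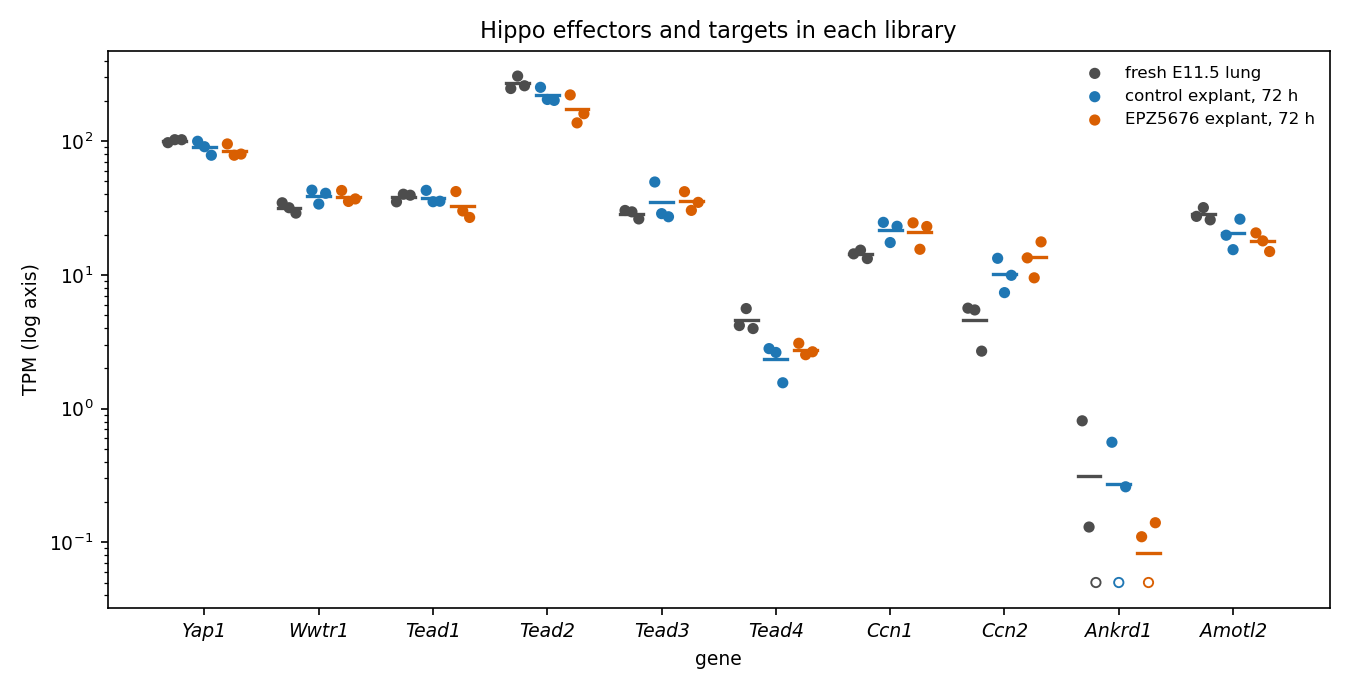
TPM (log axis) of the 10 genes in each of the 9 libraries; points are libraries, horizontal lines are group means, and open points drawn at 0.05 mark libraries in which Ankrd1 was listed at 0. Tead2 is the highest gene in every group, Ankrd1 is under 1 TPM throughout, and both explant groups lie above fresh lung for Ccn1 and Ccn2.

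The coactivator genes were both well expressed. Yap1 (chromosome 9, 7931999 to 8004596, minus strand, GRCm38) stood at 97.5, 102.7 and 102.6 TPM in the fresh libraries, at 99.9, 91.0 and 78.6 TPM in Control 1, 2 and 3, and at 95.4, 78.6 and 80.1 TPM in EPZ5676 1, 2 and 3. On this scale Control 1 reaches into the fresh range, while Control 2, Control 3 and all 3 EPZ5676 libraries lie below it. On the log2 CPM scale every control library, like every EPZ5676 library, lay below the fresh ones, at 7.95, 8.03 and 8.05. The log2 fold change of Yap1 against fresh lung was -0.27 ± 0.08 with EPZ5676 (edgeR adjusted p = 0.0248) and -0.12 ± 0.08 in controls (edgeR adjusted p = 0.283). Whether these changes differ is the comparison of EPZ5676 with control explants, which gave -0.15 ± 0.08 on the log2 scale for Yap1 (edgeR adjusted p = 0.787). On the log2 CPM scale the EPZ5676 libraries, at 7.85, 7.66 and 7.71, all lay below the control libraries, at 7.88, 7.90 and 7.89; the groups did not overlap for 10.2% of all genes, and of the 9 tested here Yap1 was the only such gene. The call with EPZ5676 against fresh lung was lost in 7 of 15 alternative analyses, among them without E11.5 2, E11.5 3, EPZ5676 2 or EPZ5676 3 (edgeR adjusted p = 0.0718, 0.0792, 0.0857 and 0.0765).

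Wwtr1 (chromosome 3, 57455649 to 57575910, minus strand) was lower than Yap1 in every library. It stood at 34.6, 31.8 and 29.0 TPM in fresh lung, 43.05, 33.9 and 40.8 TPM in controls and 42.8, 35.5 and 37.0 TPM with EPZ5676. All EPZ5676 libraries lay above the fresh range, whereas Control 2 lay within it. On the log2 CPM scale Control 2, at 6.70, lay just above the highest fresh library, at 6.68. The log2 fold change of Wwtr1 against fresh lung was 0.36 ± 0.12 in controls (edgeR adjusted p = 0.0328) and 0.29 ± 0.12 with EPZ5676 (edgeR adjusted p = 0.0730). The control call was lost without Control 3, E11.5 2 or E11.5 3 (edgeR adjusted p = 0.0871, 0.0974 and 0.132). Yap1 made up 76.0% ± 2.1 of the summed Yap1 and Wwtr1 TPM of fresh lung, 69.5% ± 3.5 of control and 68.8% ± 0.34 of EPZ5676 libraries (SD, n = 3). The fresh libraries (73.8% to 78.0%) lay above all explant libraries (65.8% to 72.9%). No test was run on these shares. The sum of both genes stayed between 114 and 143 TPM in the 9 libraries.

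The TEAD proteins carry YAP and TAZ to DNA, and their 4 genes differed widely in level. Tead2 (chromosome 7, 45215753 to 45233644, plus strand) led the whole set, at 248, 307 and 260 TPM in fresh lung, 253, 205 and 202 TPM in controls and 222, 137 and 161 TPM with EPZ5676. The EPZ5676 libraries lay below all fresh ones, while Control 1 reached the fresh range. Tead2 fell with EPZ5676 against fresh lung, by 0.48 ± 0.13 on the log2 scale (edgeR adjusted p = 0.0116). That call was kept in all 15 alternative analyses, with an adjusted p of at most 0.0481. On the log2(TPM + 1) scale the Tead2 value was -0.67. In controls its log2 fold change was -0.24 ± 0.13 (edgeR adjusted p = 0.166), and between EPZ5676 and control explants it was -0.25 ± 0.13 (95% confidence interval -0.52 to 0.033, edgeR adjusted p = 0.766). Tead4 (chromosome 6, 128224288 to 128300823, minus strand) was at the other end. Its expected counts were 38 to 56 in fresh lung, 20 to 43 in controls and 23 to 37 with EPZ5676, which limits its precision. It stood at 4.18, 5.60 and 3.97 TPM in fresh lung, at 2.81, 2.63 and 1.56 TPM in controls and at 3.08, 2.53 and 2.66 TPM with EPZ5676, so every explant library was below every fresh one. The log2 fold change against fresh lung was -0.82 ± 0.27 in controls (edgeR adjusted p = 0.0359) and -0.72 ± 0.27 with EPZ5676 (edgeR adjusted p = 0.0547). The control call was lost in 7 of 14 alternatives, which include leaving out any 1 of the 3 controls or E11.5 2 or E11.5 3 (edgeR adjusted p of at least 0.0546). With EPZ5676 the gene passed in 3 of 14 alternatives: the 6 libraries compared (edgeR adjusted p = 0.0464), the replicate number as a block (0.0483) and RLE scaling (0.0486).

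Tead1 (chromosome 7, 112679318 to 112906807, plus strand) and Tead3 (chromosome 17, 28331671 to 28350817, minus strand) did not pass in any of the 3 comparisons. Tead1 was at 38.3 ± 2.7 TPM in fresh lung, 37.9 ± 4.3 TPM in controls and 33.0 ± 8.0 TPM with EPZ5676. Its EPZ5676 libraries ran from 26.9 to 42.0 TPM and so covered the fresh range; without EPZ5676 1, the highest of them, the log2 fold change against fresh lung was -0.35 (edgeR adjusted p = 0.0327), against -0.23 ± 0.12 with all libraries (edgeR adjusted p = 0.132). Tead3 was at 28.7 ± 2.2 TPM in fresh lung, and its mean of 35.2 ± 12.5 TPM in controls came largely from Control 1, at 49.5 TPM, since Control 2 and Control 3 were at 28.7 and 27.2 TPM. Control 1 also had the highest heart muscle, cartilage and liver marker sums. Among controls it was highest in epithelial, mesenchymal, smooth muscle, endothelial, red cell and macrophage marker sums as well, but not in mesothelial ones. The part of any of these in the Tead3 value was not tested. With EPZ5676 Tead3 was at 35.7 ± 5.8 TPM.

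Taken as shares of the summed TPM of the 4 genes, Tead2 made up 79.1% ± 1.1 of the fresh, 74.7% ± 1.7 of the control and 70.6% ± 1.8 of the EPZ5676 libraries (SD, n = 3). The 3 ranges did not overlap: 78.1% to 80.3%, 72.7% to 75.8% and 68.5% to 71.8%. The control and EPZ5676 ranges lay close, and the log2 CPM of Tead2 itself overlapped between these groups. On that scale they did not overlap for 10.2% of all genes, and no such figure was computed for shares. Tead3 made up 8.42% ± 0.99, 11.7% ± 2.2 and 14.7% ± 1.0 in the same order, Tead1 11.2% ± 0.75, 12.9% ± 0.52 and 13.5% ± 1.5, and Tead4 1.33% ± 0.13, 0.79% ± 0.19 and 1.15% ± 0.14. Shares add to a fixed whole and were not tested. They also rest on the scaling by length. In fresh lung the expected counts, which are not scaled by length, were 1713 to 1948 for Tead2 and 1262 to 1446 for Tead1. The summed level was 343 ± 35 TPM in fresh lung, 296 ± 46 TPM in controls and 245 ± 57 TPM with EPZ5676. The TEAD genes are paralogs, so where their transcripts are alike the split of reads between them is an estimate. Their expected counts were whole in every library, except for Tead1 in EPZ5676 3, at 1081.83, so little division of reads shows.

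**Figure D2:**
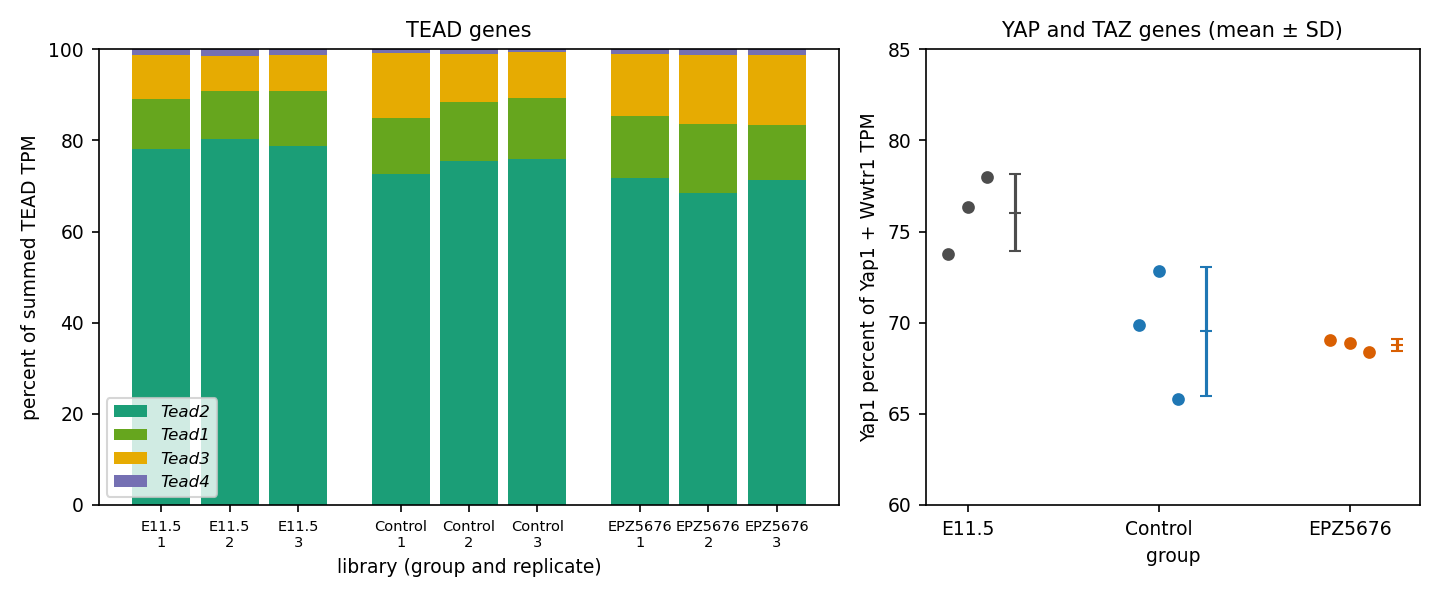
Left, the percent of the summed TEAD TPM that each of the 4 TEAD genes held in each library (stacked bars, replicates 1 to 3 of each group); right, Yap1 as a percent of Yap1 plus Wwtr1 TPM, with points for libraries, mean ± SD beside them and an axis that starts at 60. Tead2 holds the largest share in every library, from 68.5% to 80.3%, and the Yap1 share of fresh lung lies above that of all explants.

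Among the targets, the genes Ccn1 and Ccn2 rose in both explant groups. They encode secreted matricellular proteins that bind integrins and growth factors around cells. Ccn2 had the largest change of the 9 tested genes in both comparisons with fresh lung. Ccn2 (chromosome 10, 24595442 to 24598683, plus strand) was at 5.64, 5.47 and 2.69 TPM in fresh lung, 13.3, 7.37 and 9.93 TPM in controls and 13.4, 9.51 and 17.7 TPM with EPZ5676. Every explant library was above every fresh one. It rose 2.31-fold in controls (log2 fold change 1.21 ± 0.28, edgeR adjusted p = 0.00713) and 2.72-fold with EPZ5676 (1.45 ± 0.28, edgeR adjusted p = 0.00241), and both calls were kept in all 15 alternatives. The expected counts of Ccn2 ranged from 25.9 to 183, and in 5 of 9 libraries they were not whole, so some reads were divided with another gene. The noncoding gene Gm15270 overlaps a Ccn2 exon on the opposite strand; it was listed at 0 to 6.23 counts and at no more than 2.08 TPM.

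Ccn1 (chromosome 3, 145646976 to 145649981, minus strand) was at 14.4, 15.3 and 13.25 TPM in fresh lung, 24.7, 17.5 and 23.1 TPM in controls and 24.5, 15.55 and 23.0 TPM with EPZ5676. Here too every explant library lay above the fresh range, although EPZ5676 2 did so by little. It rose 1.58-fold in controls (log2 fold change 0.66 ± 0.18, edgeR adjusted p = 0.0171) and 1.47-fold with EPZ5676 (0.56 ± 0.18, edgeR adjusted p = 0.0327). The control call was lost in 3 of 15 alternatives, without E11.5 3 (edgeR adjusted p = 0.0689) and in both limma-trend fits (adjusted p = 0.0531 and 0.0533). The EPZ5676 call was lost in 7 of 15, which are both limma-trend fits and those without any 1 fresh library, EPZ5676 1 or EPZ5676 3, with adjusted p from 0.0694 to 0.116.

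The summed levels of several marker lists differed between fresh lung and explants beside Ccn1 and Ccn2. The summed level of 15 immediate early genes, which answer to serum and stress within minutes and share regulators with Ccn1 and Ccn2, was 89.4 to 99.4 TPM in fresh lung, 259 to 284 TPM in controls and 221 to 325 TPM with EPZ5676. Of the 13 tested, 10 rose in controls and 9 with EPZ5676, where 21.1% and 22.1% of all genes rose. Egr1, for example, had log2 fold changes of 3.35 ± 0.38 and 3.54 ± 0.38. The 8 smooth muscle markers summed to 222 to 428 TPM in fresh lung, 410 to 829 TPM in controls and 391 to 693 TPM with EPZ5676. In each explant group 3 of the 8 rose, and 1 fell with EPZ5676, beside 37.7% and 40% of all genes called. The 8 mesenchymal markers summed to 481 to 538, 693 to 909 and 597 to 794 TPM, but did not move together. Beside the same shares of all genes, 2 rose and 2 fell in controls, and 3 rose and 2 fell with EPZ5676. Among them the collagen gene Col1a1 rose, with a mean of 108 TPM in fresh lung, 379 TPM in controls and 352 TPM with EPZ5676, while the transcription factor genes Foxf1 and Tbx5 fell in both explant groups; these genes were picked after their values were seen. The 8 endothelial markers went the other way, at 194 to 216 TPM in fresh lung, 13.5 to 82.9 TPM in controls and 23.4 to 57.5 TPM with EPZ5676. The 8 red cell markers summed to 14939 to 17626 TPM in fresh lung, 86.4 to 1181 TPM in controls and 71.0 to 1013 TPM with EPZ5676, and the 8 macrophage markers to 35.0 to 52.0, 233 to 371 and 270 to 409 TPM. None of these markers was at 0 in every library. Their part in the changes of the YAP and TAZ targets was not tested.

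Amotl2 (chromosome 9, 102716672 to 102733418, plus strand) is both a target of YAP and a protein that binds YAP and holds it outside the nucleus. It did not share the course of the CCN genes. It stood at 27.4, 31.9 and 25.8 TPM in fresh lung, 19.8, 15.4 and 26.1 TPM in controls and 20.6, 18.0 and 15.0 TPM with EPZ5676. The EPZ5676 libraries were all below the fresh ones, while Control 3 was inside the fresh range. The log2 fold change against fresh lung was -0.29 ± 0.23 in controls (edgeR adjusted p = 0.355) and -0.56 ± 0.23 with EPZ5676 (edgeR adjusted p = 0.0788). Without Control 3 the control value was -0.65 (edgeR adjusted p = 0.00375), and with EPZ5676 the gene passed in 4 of 15 alternatives.

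Ankrd1 (chromosome 19, 36111961 to 36120099, minus strand) encodes a cardiac ankyrin repeat protein and is a standard YAP reporter in cultured cells. It was close to the limit of detection here. The 9 libraries held 17 counts in all: 6, 1 and 0 in fresh lung, 6, 0 and 2 in controls and 1, 0 and 1 with EPZ5676. A count of 0 allows up to 3 counts, or 0.443 to 0.461 CPM in the 3 libraries without a read. The highest TPM were 0.81 in E11.5 1 and 0.56 in Control 1. The summed heart muscle markers were also highest within their groups in these libraries, at 97.5 TPM in E11.5 1 (53.6 and 44.5 TPM in the other fresh libraries) and 205 TPM in Control 1; their part in the Ankrd1 reads was not tested. No change was estimated for Ankrd1.

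**Figure D3:**
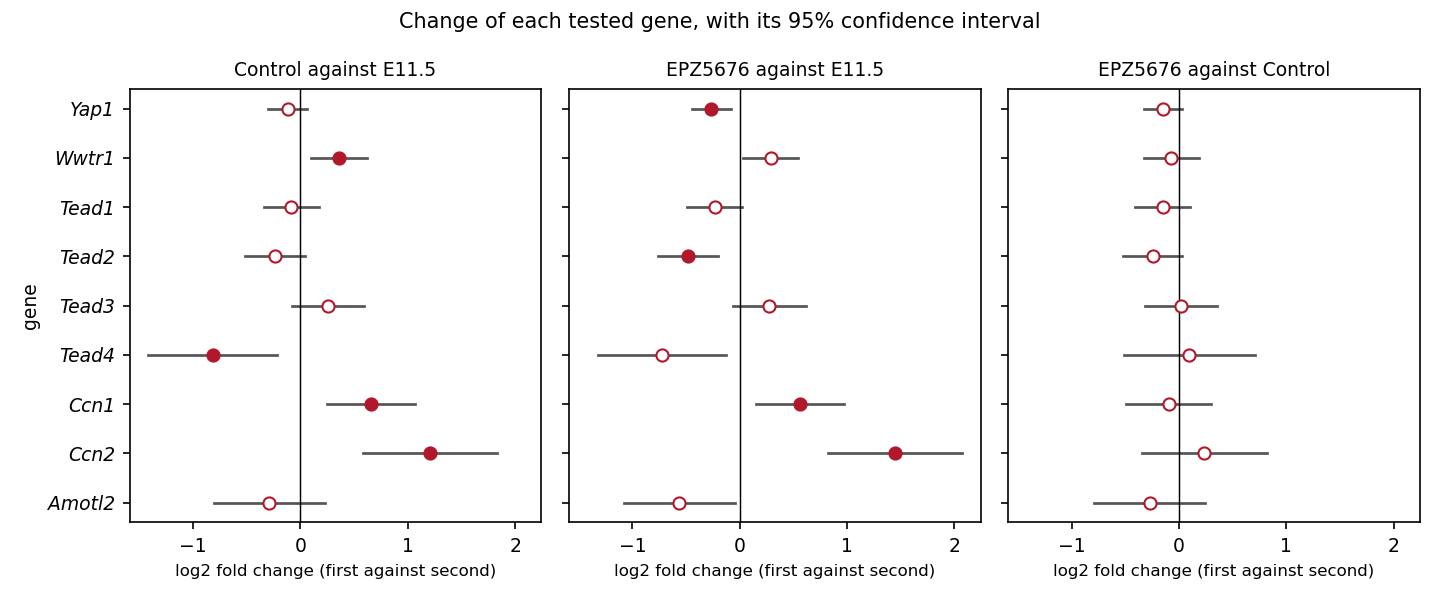
Log2 fold change of the 9 tested genes in the 3 comparisons, with bars for the 95% confidence interval; filled points passed the adjusted threshold in edgeR. Ccn1 and Ccn2 are filled and to the right in both comparisons with fresh lung, and no point is filled for EPZ5676 against Control.

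The proximal promoters were searched for a sequence that these genes may share. TEAD proteins bind the hexamer GGAATG, and the windows below show where it stands beside the coactivator and target genes other than Ccn2. The 250 bases upstream of each RefSeq start site (GRCm38.p6) were searched for GGAATG on both strands, with no other motif searched. Entries were found for 7 of the 10 genes, and 6 of these held a match in at least 1 entry, all but Tead2. Among 27025 genes with an entry 14.4% did. Ccn2, Tead1 and Tead4 had no entry and were not searched. The Tead3 matches are counted here but not shown. Each line gives 30 bases read so that the match, in capitals, is GGAATG.
Ccn1, chr3:145650071-145650100, plus strand: tcaaacatctcaGGAATGttggttggcgcg
Amotl2, chr9:102717727-102717756, minus strand: gctgctatgccaGGAATGtgagagtttcag
Ankrd1, chr19:36120037-36120066, minus strand: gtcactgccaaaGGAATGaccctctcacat
Ankrd1, chr19:36119950-36119979, minus strand: gacactaagtctGGAATGaaaattcacctg
Yap1, chr9:8004720-8004749, minus strand: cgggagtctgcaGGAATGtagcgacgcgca
Wwtr1, chr3:57576029-57576058, minus strand: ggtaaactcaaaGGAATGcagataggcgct
The Ankrd1 matches lie 210 and 123 bases before the start, and the Amotl2 match 65 bases before it. They lie inside an exon of a longer GENCODE M21 transcript of the same gene. Those of Ccn1, Yap1 and Wwtr1 lie outside the annotated exons of their own gene. Exons of other genes were not checked. Genes that hold a match did not move alike: Ccn1 rose in both explant groups, Amotl2 passed in neither and Ankrd1 was barely detected. A match describes the letters only and is not evidence of binding. The 250 bases before Ccn1 (chr3:145649986-145650235, minus strand) are shown in full because Ccn1 rose and all of them lie outside annotated Ccn1 exons. They hold the match once, in capitals, as its reverse complement 103 bases before the start.
Ccn1 upstream: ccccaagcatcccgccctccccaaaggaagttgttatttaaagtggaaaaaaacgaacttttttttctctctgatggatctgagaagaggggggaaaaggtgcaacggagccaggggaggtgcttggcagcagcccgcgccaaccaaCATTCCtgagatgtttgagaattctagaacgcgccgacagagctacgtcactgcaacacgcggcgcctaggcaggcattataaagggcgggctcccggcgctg

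EPZ5676 and control explants were compared directly to ask what DOT1L inhibition changes. None of the 9 genes passed, and 6 were below and 3 above control in mean. In edgeR the smallest unadjusted p-values were 0.0779 for Tead2 and 0.0994 for Yap1, and 6.94% of all genes had an unadjusted p under 0.05 while 0 of these 9 did; DESeq2 called 0 of the 9 as well. The 95% confidence interval of the log2 fold change was -0.33 to 0.033 for Yap1, -0.33 to 0.18 for Wwtr1, -0.40 to 0.11 for Tead1, -0.31 to 0.35 for Tead3 and -0.51 to 0.71 for Tead4. Among the targets it was -0.49 to 0.30 for Ccn1, -0.35 to 0.82 for Ccn2 and -0.79 to 0.24 for Amotl2. These intervals do not show that the groups were alike; they leave out a 2-fold change in either direction for each of the 9 genes. The Amotl2 estimate, -0.27 ± 0.23 and the largest in size of the 9, was 0.094 without Control 3. The estimates of Wwtr1, Tead3, Tead4 and Ccn1, all smaller, also changed sign without Control 3, and some of them without another library. The summed mesothelial markers were at 52.5, 103 and 54.6 TPM in EPZ5676 1, 2 and 3. They were at 32.7 to 37.8 TPM in controls and 56.6 to 70.0 TPM in fresh lung. All 8 markers were above control with EPZ5676, but 0 of the 8 passed, beside 0% of all genes. Their part in the values above was not tested.

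Upstream of YAP and TAZ stands the kinase cassette. Of its 7 genes, all tested, 1 rose and 2 fell in each explant group, a share near the 37.7% and 40% of all genes called in these comparisons. Lats1, a kinase that phosphorylates YAP, rose by a log2 fold change of 0.33 ± 0.08 in controls and 0.38 ± 0.08 with EPZ5676. Its paralog Lats2, which is also a target of YAP, fell, with -0.48 ± 0.13 and -0.59 ± 0.13, from 23.2 ± 3.9 TPM in fresh lung to 12.2 ± 0.71 and 12.3 ± 1.9 TPM. Across alternatives the Lats1 calls were lost in 2 of 15 in each comparison and the Lats2 call in controls in 3 of 15. The Lats2 values ran from -0.91 to -0.41 in controls and from -0.90 to -0.54 with EPZ5676, so their size depends on the processing. Sav1, the scaffold of the cassette, fell with -0.26 ± 0.08 and -0.24 ± 0.08, calls that were lost in 7 and 8 of 15 alternatives. The list's median was -0.028 in controls and -0.095 with EPZ5676.

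Of 10 upstream activators 2 rose and 1 fell in controls, and 2 rose and 2 fell with EPZ5676 (medians 0.11 and 0.053), again near the 37.7% and 40% of all genes called. Wwc1, which encodes KIBRA, an adaptor that activates the kinases at the apical side of epithelia, rose most, from 12.4 ± 4.4 TPM in fresh lung to 26.8 ± 5.0 TPM in controls and 34.2 ± 12.4 TPM with EPZ5676, with log2 fold changes of 1.32 ± 0.14 (edgeR adjusted p = 8.7e-05) and 1.43 ± 0.14 (edgeR adjusted p = 4.0e-05). The 8 epithelial markers rose beside it, from a sum of 293 to 305 TPM in fresh lung to 574 to 908 and 855 to 1180 TPM in control and EPZ5676 explants; their part in the Wwc1 values was not tested. The kinase gene Taok3 rose with 0.67 ± 0.17 and 0.73 ± 0.17, and Map4k4 fell with -0.34 ± 0.09 and -0.47 ± 0.09. The Taok3 calls were lost in 3 and 2 of 15 alternatives and the Map4k4 call in controls in 2 of 15. Nf2, which encodes the tumour suppressor Merlin, fell with EPZ5676 against fresh lung (-0.27 ± 0.08, edgeR adjusted p = 0.0191), a call lost in 6 of 15 alternatives.

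Of 6 genes whose proteins bind YAP, TAZ or the LATS kinases, 3 rose and 1 fell in controls, and 2 rose and 1 fell with EPZ5676 (medians 0.19 and 0.14), beside 37.7% and 40% of all genes called and 21.1% and 22.1% that rose. The gene that fell was Amot, which encodes angiomotin, a protein that holds YAP at cell junctions and in the cytoplasm. Amot was at 34.3, 33.9 and 35.5 TPM in fresh lung, 25.3, 20.7 and 18.9 TPM in controls and 20.1, 16.4 and 16.8 TPM with EPZ5676. Its log2 fold change against fresh lung was -0.66 ± 0.09 in controls (edgeR adjusted p = 4.0e-04) and -1.01 ± 0.09 with EPZ5676 (edgeR adjusted p = 2.7e-05), and both calls were kept in all 15 alternatives. Against controls the EPZ5676 value was -0.36 ± 0.09, which did not pass (edgeR adjusted p = 0.367). Ptpn14, a phosphatase that binds YAP, rose with 0.62 ± 0.11 and 0.45 ± 0.11, and the LIM protein gene Limd1 with 0.34 ± 0.10 and 0.27 ± 0.10; Wtip rose in controls (0.44 ± 0.13). The Limd1 calls were lost in 5 of 15 alternatives in controls and 13 of 15 with EPZ5676, the Ptpn14 calls in 2 of 15 each and the Wtip call in 3 of 15.

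The VGLL proteins bind TEAD in place of YAP. Of 4 VGLL genes 2 were tested. Vgll3 fell from 1.45 ± 0.54 TPM in fresh lung to 0.69 ± 0.11 TPM in controls and 0.65 ± 0.42 TPM with EPZ5676 (log2 fold changes -1.83 ± 0.41 and -1.70 ± 0.41), with each call lost in 2 of 14 alternatives. At these low levels the size depends on the processing. Across alternatives it ran from -2.00 to -0.51 in controls and from -1.93 to -0.59 with EPZ5676. Vgll4 had log2 fold changes of 0.19 ± 0.12 in both explant groups and did not pass.

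**Figure D4:**
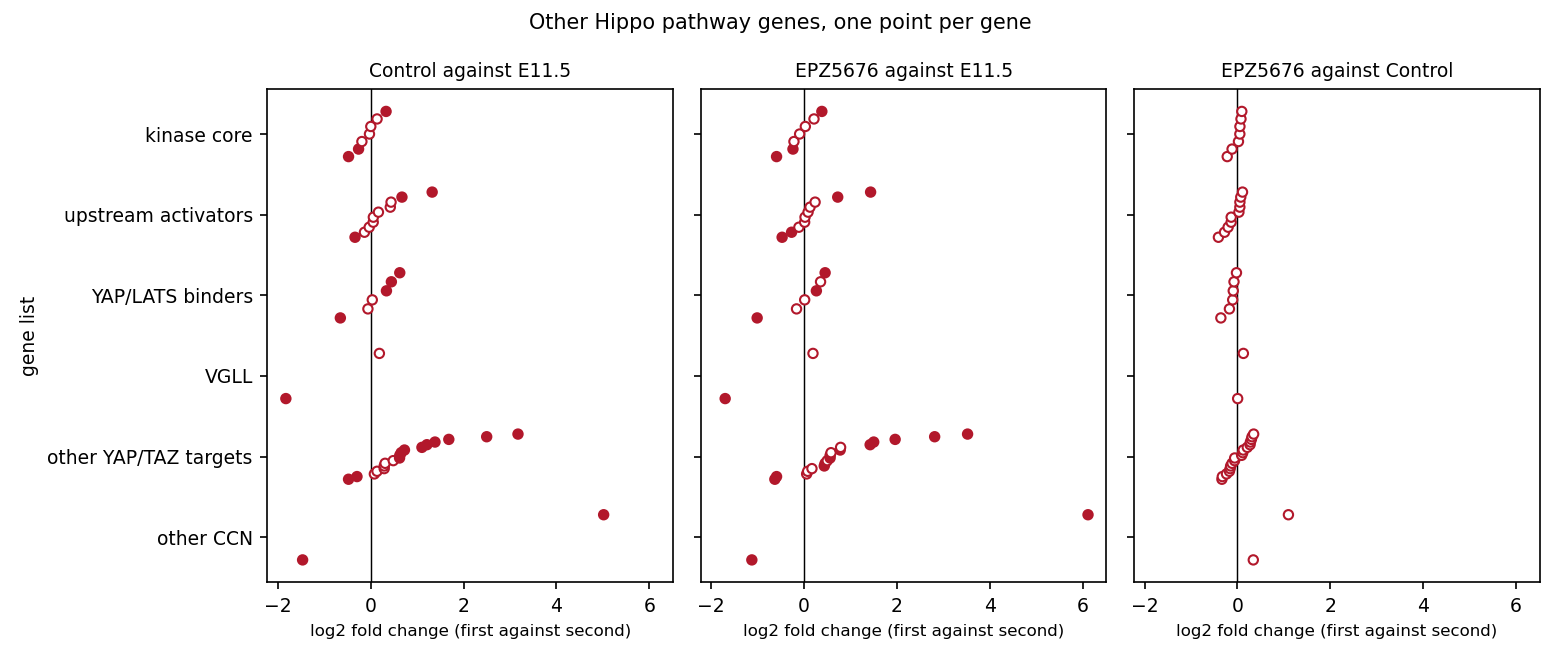
Log2 fold change of every tested gene of 6 further lists in the 3 comparisons, 1 point per gene, spread vertically in order of the change within a list; filled points passed the adjusted threshold in edgeR. Filled points of the other YAP and TAZ targets lie mostly to the right in both comparisons with fresh lung, and no point is filled for EPZ5676 against Control.

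A list of 18 further YAP and TAZ target genes, known mainly from cultured cells, was all tested. In controls 10 rose and 2 fell, and with EPZ5676 again 10 rose and 2 fell, with medians of 0.62 and 0.56 on the log2 scale, beside 21.1% and 22.1% of all genes that rose and medians of all genes of 0.020 and 0.019. The list shares Lats2 and Ptpn14 with the lists above. Nuak2, a stress kinase, had the largest change, from 0.75 ± 0.35 TPM in fresh lung to 4.93 ± 0.78 TPM in controls and 6.40 ± 1.16 TPM with EPZ5676 (log2 fold changes 3.17 ± 0.29 and 3.52 ± 0.29, edgeR adjusted p = 3.5e-05 and 1.3e-05). On the log2(TPM + 1) scale the Nuak2 values were 1.77 and 2.09. F3, the tissue factor that starts coagulation, rose with 1.68 ± 0.38 and 1.96 ± 0.38, and Nt5e, an ectonucleotidase, with 2.50 ± 0.70 and 2.81 ± 0.69, the latter from very low levels (0.20 ± 0.14 TPM in fresh lung) and with the control call lost in 4 of 13 alternatives. On the log2(TPM + 1) scale the Nt5e values were 0.79 and 0.98, and without E11.5 1 they were 3.18 and 3.49 in edgeR; without EPZ5676 1 the EPZ5676 value was 2.16. The genes that fell were Lats2, given above, and Asap1, which encodes a GTPase-activating protein. Asap1 fell with -0.30 ± 0.10 and -0.63 ± 0.10, and the control call was lost in 9 of 15 alternatives. Between EPZ5676 and control explants 0 of the 18 passed, with 9 above and 9 below.

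The rest of the CCN family went separate ways. Ccn3, at 0.34, 0.52 and 0.09 TPM in fresh lung, was at 3.37, 21.7 and 5.61 TPM in controls and 24.1, 25.4 and 17.2 TPM with EPZ5676. It rose against fresh lung in both groups (log2 fold changes 5.02 ± 1.00 and 6.12 ± 0.96) from 1 to 6 counts a library, so the size depends on few reads. Without Control 2, the highest control, the control value was 3.86, and with limma-trend on log2(TPM + 1) the values were 2.74 and 4.14; the calls were kept in all 15 alternatives. Ccn4 fell, from 19.4 ± 4.1 TPM to 6.96 ± 2.16 and 8.74 ± 0.73 TPM (log2 fold changes -1.47 ± 0.20 and -1.12 ± 0.20). Of the 4 genes of this list 2 were tested.

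The genes whose course over the 9 libraries came closest to that of a member were found by the root mean square difference of log2 CPM after centring each gene on its mean, among 13431 tested genes with a full name. For Ccn2, whose own root mean square about its mean was 0.72, they were Fam219a (0.15), Pmepa1 (0.21) and Susd4 (0.22). For Ccn1 (0.34) they were Nav2 (0.10), Akap13 (0.10) and Uchl1 (0.10), and for Yap1 (0.12), which varied little, they were Bmpr2 (0.029), Eif4g3 (0.042) and Braf (0.047). These values describe likeness of course over libraries only.

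The order of levels in TPM was led by Tead2 and Yap1 in all 3 groups, each clear of the next gene in every library. In fresh lung Tead1 followed, then Wwtr1, Tead3 and Amotl2, whose ranges overlapped with their neighbours, then Ccn1, Ccn2 and Tead4, of which the last pair overlapped. In controls Wwtr1, Tead1 and Tead3 overlapped, as did Ccn1 and Amotl2, and with EPZ5676 Wwtr1, Tead3 and Tead1 overlapped, as did Ccn1, Amotl2 and Ccn2. Ccn1 thus stood below Amotl2 in every fresh library and within or above its range in the explants. Among genes that overlap a member on the opposite strand, Cd37 shares sequence positions with a Tead2 exon and was at 0.50 to 0.85 TPM in fresh lung and 1.85 to 5.29 TPM in explants, and 2310014F06Rik with a Tead1 exon at 1.34 to 3.82 TPM. Nothing states whether counting used strand, so it is not known how reads of such pairs were kept apart. The expected counts of Cd37, 2310014F06Rik and Tead2 were whole in every library, so no division of their reads shows. Those of Tead1 were whole except in EPZ5676 3. Yap1 counts were not whole in E11.5 2, E11.5 3, Control 1, Control 2, EPZ5676 1 and EPZ5676 2. The noncoding gene Gm20416 overlaps a Yap1 exon on the opposite strand and was listed at 0 to 1.04 counts.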

How the data were processed

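Of the tables the authors deposited, one holds expected counts (estimates, of which 12.5% to 15.3% per library are not whole) and the other TPM, which sum to 998977 to 999233 per library. RSEM, Bowtie2 and mm10 stand in the submitters' processing notes without versions or roles, and libraries were made from total RNA per the labels' protocols. All 55286 identifiers and symbols matched GENCODE M21, from which positions come. Promoters are RefSeq's (GRCm38.p6).

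Expected counts were rounded, filtered with filterByExpr (minimum count 10) and scaled by TMM. The 3 groups were fitted together over all 9 libraries (6 residual degrees of freedom) in edgeR 4.0.16 (R 4.3.3, robust quasi-likelihood, legacy method), and SE were derived from F. Log2 CPM used a prior count of 2. The script was tested on simulated data. Alternatives were DESeq2 1.42.0, limma-trend (limma 3.58.1) on log2 TPM with a pseudocount of 1 or 0.1, upper-quartile or RLE scaling, no filter or 50 counts in 3 libraries, the 6 libraries compared, the replicate number as a block, and leaving out each library. Replicates differed by more than sampling noise (chi-square per degree of freedom 2.63 to 31.0). Members, lists and tests were chosen with earlier results of these data known. From each list up to 3 called genes in each direction with the largest change were eligible to be named, or the 2 smallest p-values, together with the 3 nearest patterns for Yap1, Ccn1 and Ccn2. The floor of 3 counts covers counting error only, while the confidence intervals of fold changes include the spread between libraries. Figures were drawn with matplotlib 3.10.9.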

Additional observations from a re-analysis of the deposited data

How the results depend on the processing

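Of 402 alternative values of the 9 tested genes, 353 kept their direction and side of the threshold, 30 lost a call, 10 gained one and 9 changed sign. The count of 4 genes called in control explants against fresh lung was 2 with limma-trend at either TPM pseudocount (1 or 0.1), and 1 to 4 with a library left out. The count of 4 with EPZ5676 against fresh lung was 7 in the fit to only the 6 libraries compared, and 2 to 4 with a library left out. Between EPZ5676 and control explants 0 of the 9 were called in every alternative, while the 0 calls among all genes became 104 with DESeq2, 76 with no filter on low counts, 1 with the replicate block, and 0 to 26 with a library left out.

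Signs changed only between EPZ5676 and control explants. With a library left out the log2 fold change ran from -0.49 to 0.094 for Amotl2, -0.24 to 0.053 for Ccn1, -0.084 to 0.21 for Tead3, -0.021 to 0.23 for Tead4, -0.18 to 0.060 for Wwtr1, -1.18 to 0.20 for Dusp1, -0.11 to 0.50 for Vgll3 and -0.10 to 0.11 for Vgll4. With limma-trend Vgll3 was at -0.31 (pseudocount 0.1) or -0.072 (pseudocount 1), and Vgll4 at -0.0010 with DESeq2 and -4.7e-04 without the filter. The causes of these changes were not tested. Same-numbered libraries did not deviate together in every pair (correlations -0.10 to 0.46). Such correlations cannot show whether the numbers pair the samples, and nothing states it. Under the block 4 and 5 members were called against fresh lung in controls and with EPZ5676. Depth limits Ankrd1, Tead4 and Ccn2 most.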
